A study of Capra hircus with 9 samples.

Results

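Marker genes of myoepithelial and smooth muscle cells were followed in the goat submandibular gland, a salivary gland, at 3 ages. The set was named by gene, and the expected counts of all transcripts of a gene were summed, which gave 9 members of 21666 genes: *ACTA2*, *MYH11*, *CNN1*, *TAGLN*, *MYLK*, *LMOD1*, *DES*, *TP63* and *OXTR*. All 9 members had counts above 0 in all 9 libraries, and all 9 passed the filter on low counts in each comparison. RNA of the whole gland was sequenced after removal of ribosomal RNA. The animals were healthy female Lubo goats kept under the same conditions, with 3 at 1 month (group A), 3 at 12 months (group B) and 3 at 24 months (group C), and each library came from 1 goat. Before collection the goats of all groups were fasted and given xylazine hydrochloride as an anaesthetic.

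Myoepithelial cells are flat, branched epithelial cells that wrap the secretory end pieces and the first ducts of salivary glands. They sit between the secretory cells and the basement membrane, and their contraction squeezes saliva into the ducts. They share their contractile proteins with the smooth muscle of vessel walls but keep basal epithelial proteins such as TP63 and keratins 5 and 14. In both cell types calcium activates myosin light-chain kinase, which switches on smooth muscle myosin to pull on actin filaments. Because the gland was sequenced whole, the members' counts can come from myoepithelium, vessels and any other tissue in the sample. Fewer cells of a type cannot be told apart from less RNA per cell.

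Levels are given in CPM, the usual unit of counts relative to library size, scaled by the trimmed mean of M-values (TMM) over the 9 libraries. Library totals lay between 11546808 and 24901065 expected counts, and 3 counts corresponded to 0.145 to 0.190 CPM. The 1-month library of replicate 2 stood apart. Its log2 expression had a correlation of 0.813 and 0.803 with the other 1-month libraries across genes, against 0.939 between those. *MUC19*, a gel-forming mucin of salivary acini, was at 50.85 CPM in it and at 16946 CPM or more in each of the other 8 libraries, and *AQP5*, the acinar water channel, was at 0.493 CPM against at least 128 CPM. Of 16 salivary acinar and duct genes, 12 stood there at 0.254% to 39.1% of the mean of replicates 1 and 3. Among these 12 were the general epithelial genes *EPCAM*, at 6.19%, and *KRT7*, at 15.0%. The other 4, *KRT8*, *KRT18*, *KRT19* and *CDH1*, are general epithelial genes too and stood at 96.2% to 156%. The 10 thymocyte genes (among them *RAG1* and *CD3E*) summed to 11227 CPM there, to 3096 and 1496 CPM in 1-month replicates 1 and 3, and to between 5.50 and 21.3 CPM in the 6 adult libraries. The tests against the 1-month group are therefore given with and without replicate 2.

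With all libraries, 0 of the 9 members differed between any pair of ages at an adjusted p under 0.05 (edgeR quasi-likelihood test, Benjamini-Hochberg adjustment over all genes tested). Over all genes 18.3% passed between 12 and 1 months and 17.6% between 24 and 1 months. At an unadjusted p under 0.05 there were 2 members in each comparison with 1 month, *TAGLN* and *LMOD1*, beside 37.8% and 34.3% of all genes, and 0 between 24 and 12 months, beside 10.9%. Without 1-month replicate 2, *MYH11*, *CNN1* and *TAGLN* rose in group B, and *MYH11* and *CNN1* rose in group C, by 1.69 to 2.31-fold. *ACTA2*, *MYLK*, *LMOD1*, *DES*, *TP63* and *OXTR* did not pass the test in either comparison. Those counts, 3 and 2 of 9, stand beside 43.3% and 27.9% of all genes that passed in either direction without this library, and 21.1% and 13.8% that passed as higher in the older group. The members' share lay between these backgrounds and is not read as a result about the members. No member passed the stricter threshold of the study, which also asks for an absolute log2 fold change over 2, where 11.7% and 13.4% of all genes passed.

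**Figure D1:**
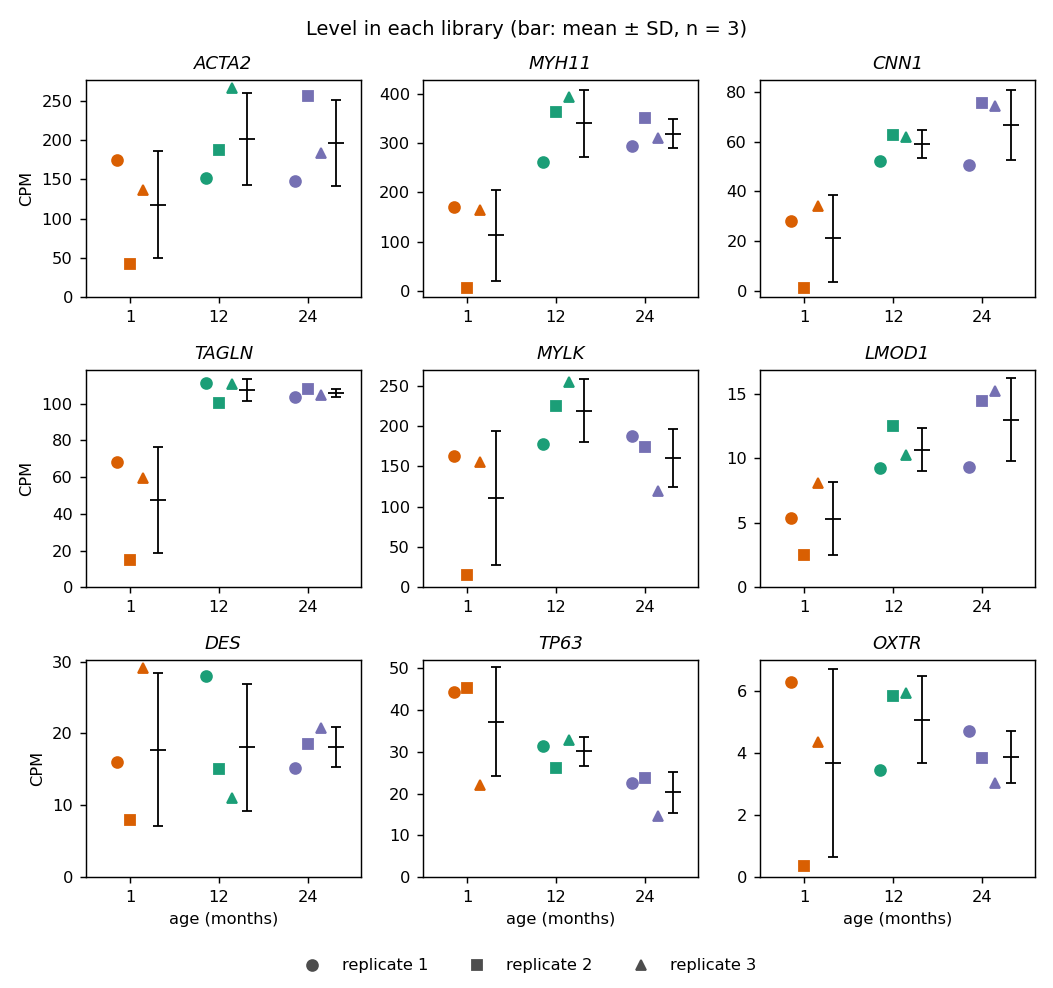
Level of each member in CPM (vertical axis, starting at or just below 0) against age in months, with 1 symbol per library (circle, square and triangle for replicates 1, 2 and 3) and the mean ± SD of the 3 libraries as a bar. The square at 1 month lies lowest in its group for 8 of the 9 genes, all but *TP63*, and *MYH11*, *CNN1*, *TAGLN* and *LMOD1* are higher in all 6 adult libraries than in any 1-month library.

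The filament and its motor come first. *ACTA2* encodes smooth muscle alpha-actin, the standard marker of myoepithelial and vascular smooth muscle cells. Its level was 174 CPM, 42.9 CPM and 137 CPM in 1-month replicates 1, 2 and 3. It was 152 CPM, 188 CPM and 266 CPM at 12 months, and 148 CPM, 256 CPM and 184 CPM at 24 months. Apart from 1-month replicate 2 the ages overlapped, with 1-month replicate 1 above the lowest library of both adult groups. For *ACTA2* the log2 fold change was 0.85 (SE 0.517, adjusted p 0.258) in group B and 0.87 (SE 0.547, adjusted p 0.292) in group C. Without replicate 2 it was 0.38 (SE 0.261, adjusted p 0.284) and 0.44 (SE 0.358, adjusted p 0.380). Reads of *ACTA2* can be shared with other actins of near-identical sequence. *ACTG2*, the gamma smooth muscle actin, lay between 19.4 and 36.8 CPM outside 1-month replicate 2 and at 1.27 CPM in it. The skeletal actin *ACTA1* was at 27.9 CPM in 12-month replicate 2 and at 6.92 CPM or less elsewhere, and the cardiac actin *ACTC1* was at 1.55 CPM or less everywhere. How the counting divided reads among these actins was not tested.

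*MYH11* encodes the heavy chain of smooth muscle myosin, the motor that pulls on those filaments. It was at 169.8 CPM, 7.11 CPM and 164 CPM in the 1-month libraries. At 12 months it was at 263 CPM, 363 CPM and 394 CPM, and at 24 months at 294 CPM, 352 CPM and 312 CPM. All 6 adult libraries were above all 3 of the 1-month group, and the adult groups overlapped. The means were 114 ± 92.2 CPM, 339.95 ± 68.7 CPM and 319 ± 29.5 CPM (SD, n = 3). With all libraries the log2 fold change was 1.67 (SE 0.949, adjusted p 0.231) in group B and 1.64 (SE 0.900, adjusted p 0.235) in group C. Without replicate 2 it was 1.03 (SE 0.203, adjusted p 0.00978) in group B and 1.04 (SE 0.312, adjusted p 0.0359) in group C. *MYH11* was thus called only in fits that left out the library in which it was lowest.

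The regulators of the filament come next. *CNN1* encodes calponin, an actin-binding protein that slows the myosin cycle. It was at 28.2 CPM, 1.48 CPM and 34.2 CPM at 1 month. Its level was 52.4 CPM, 62.6 CPM and 62.0 CPM at 12 months, and 50.6 CPM, 75.5 CPM and 74.2 CPM at 24 months. Its adult values were all above its 1-month values. For *CNN1* the log2 fold change was 1.56 (SE 0.899, adjusted p 0.237) in group B and 1.80 (SE 0.871, adjusted p 0.182) in group C. Without replicate 2 it was 0.92 (SE 0.155, adjusted p 0.00591) and 1.21 (SE 0.337, adjusted p 0.0283).

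*TAGLN* encodes transgelin, an actin-bundling protein of smooth muscle and myoepithelium. It stood at 68.1 CPM, 14.7 CPM and 59.6 CPM at 1 month. It was at 111 CPM, 100.4 CPM and 111 CPM at 12 months and at 104 CPM, 108 CPM and 105 CPM at 24 months. The adult spread was the narrowest of the 9 members relative to the level, at 107 ± 6.11 CPM and 106 ± 2.28 CPM (SD, n = 3), and no adult library overlapped with a 1-month library. For *TAGLN* the log2 fold change was 1.26 (SE 0.522, adjusted p 0.128) and 1.29 (SE 0.539, adjusted p 0.131) with all libraries. Without replicate 2 it was 0.75 (SE 0.130, adjusted p 0.00631) in group B, a call, and 0.83 (SE 0.298, adjusted p 0.0659) in group C, which was not. With all 8 other libraries in one fit, an alternative added after the values were seen, *TAGLN* was called in both (adjusted p 0.0203 and 0.0179).

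*MYLK* encodes myosin light-chain kinase, the calcium-dependent switch of contraction. Its 1-month levels were 163 CPM, 15.1 CPM and 155 CPM. They were 178 CPM, 225 CPM and 255 CPM at 12 months, all above the 1-month libraries, and 188 CPM, 174 CPM and 120 CPM at 24 months, where the last lay below 2 of the 1-month libraries. The log2 fold change was 1.07 (SE 0.756, adjusted p 0.325) in group B and 0.67 (SE 0.735, adjusted p 0.557) in group C. Without replicate 2 it was 0.46 (SE 0.179, adjusted p 0.0808) and 0.12 (SE 0.330, adjusted p 0.810).

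*LMOD1* encodes leiomodin, a smooth muscle protein that starts actin filaments. It was at 5.40 CPM, 2.50 CPM and 8.10 CPM in the 1-month libraries. At 12 months it was at 9.28 CPM, 12.5 CPM and 10.2 CPM, and at 24 months at 9.36 CPM, 14.4 CPM and 15.2 CPM. The adult libraries lay above the 1-month ones, although the gap between 1-month replicate 3 and 12-month replicate 1 was small. The log2 fold change was 1.08 (SE 0.451, adjusted p 0.131) in group B and 1.43 (SE 0.515, adjusted p 0.0903) in group C. Without replicate 2 it was 0.66 (SE 0.274, adjusted p 0.0968) and 1.05 (SE 0.414, adjusted p 0.0864).

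*DES* encodes desmin, the muscle intermediate filament, which marks vascular smooth muscle and striated muscle more than salivary myoepithelium. Its levels were 16.1 CPM, 8.03 CPM and 29.2 CPM at 1 month. They were 28.0 CPM, 15.1 CPM and 11.1 CPM at 12 months and 15.2 CPM, 18.5 CPM and 20.8 CPM at 24 months. The 3 ages overlapped throughout, and the means lay at 17.8 ± 10.7 CPM, 18.1 ± 8.88 CPM and 18.1 ± 2.80 CPM (SD, n = 3). The log2 fold change was 0.099 (SE 0.534, adjusted p 0.904) in group B and 0.17 (SE 0.493, adjusted p 0.835) in group C. It changed sign without replicate 2, at -0.32 (SE 0.444, adjusted p 0.588) and -0.21 (SE 0.370, adjusted p 0.702). Skeletal muscle genes were present in some libraries, with a summed level over 18 genes of 294 CPM in 1-month replicate 1 and 427 CPM in 12-month replicate 2 against 21.8 to 126 CPM in the other 7. In 12-month replicates 1 and 3 most of this sum was *NEB*, at 80.8 and 78.3 CPM of 91.0 and 85.8 CPM. *NEB* was at 83.6 CPM in 12-month replicate 2, so it did not follow the rest of the list there. *DES* was not highest in 1-month replicate 1 and 12-month replicate 2, where it stood at 16.1 and 15.1 CPM. The part of skeletal muscle in the level of *DES* was not tested.

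*TP63* encodes the p63 transcription factor, which keeps basal epithelial cells in their state and is nuclear in myoepithelial and basal duct cells. Its order of libraries differed from that of the contractile genes. It was at 44.3 CPM, 45.2 CPM and 22.2 CPM at 1 month, so that replicate 2 was the highest of all. It was at 31.4 CPM, 26.1 CPM and 32.7 CPM at 12 months, and at 22.4 CPM, 23.7 CPM and 14.7 CPM at 24 months. All 3 libraries of group C lay below all 3 of group B, while the 1-month libraries spanned the range of group B. The log2 fold change was -0.26 (SE 0.349, adjusted p 0.602) in group B and -0.77 (SE 0.432, adjusted p 0.245) in group C. Without replicate 2 it was -0.14 (SE 0.298, adjusted p 0.729) and -0.61 (SE 0.405, adjusted p 0.289). Under scaling by total counts alone, which shifts the median of all genes by -0.49 in group B and -0.70 in group C, *TP63* reached -1.45 (adjusted p 0.0338) in group C. Thymic epithelium also contains p63, and thymic epithelial genes were high in the same library: *FOXN1*, the regulator of that epithelium, was at 80.1 CPM in 1-month replicate 2, at 15.7 and 5.55 CPM in replicates 1 and 3, and at 0.103 CPM or less in the adult libraries. Over the 8 genes of the thymic epithelial list the summed level was 924.5 CPM in replicate 2, 366 and 188 CPM in replicates 1 and 3, and 157 to 223 CPM in the adult libraries, and 5 of the 7 tested fell in both comparisons. The adult sum came almost wholly from *CTSV* and *PAX9*, which are not particular to the thymus, and *PAX9* rose in both comparisons. The other 6 genes were at 2.49 CPM or less in every adult library. Their part in the level of *TP63* was not tested.

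*OXTR* encodes the oxytocin receptor, through which oxytocin contracts myoepithelium in the mammary gland. It rested on only 6.74 to 111 counts per library. Its levels were 6.29 CPM, 0.352 CPM and 4.35 CPM at 1 month. They were 3.46 CPM, 5.83 CPM and 5.94 CPM at 12 months and 4.71 CPM, 3.84 CPM and 3.05 CPM at 24 months. Outside 1-month replicate 2 the ages overlapped. The log2 fold change was 0.56 (SE 0.849, adjusted p 0.649) in group B and 0.21 (SE 0.842, adjusted p 0.881) in group C, and it changed sign without replicate 2, at -0.064 (SE 0.356, adjusted p 0.899) and -0.36 (SE 0.487, adjusted p 0.611).

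**Figure D2:**
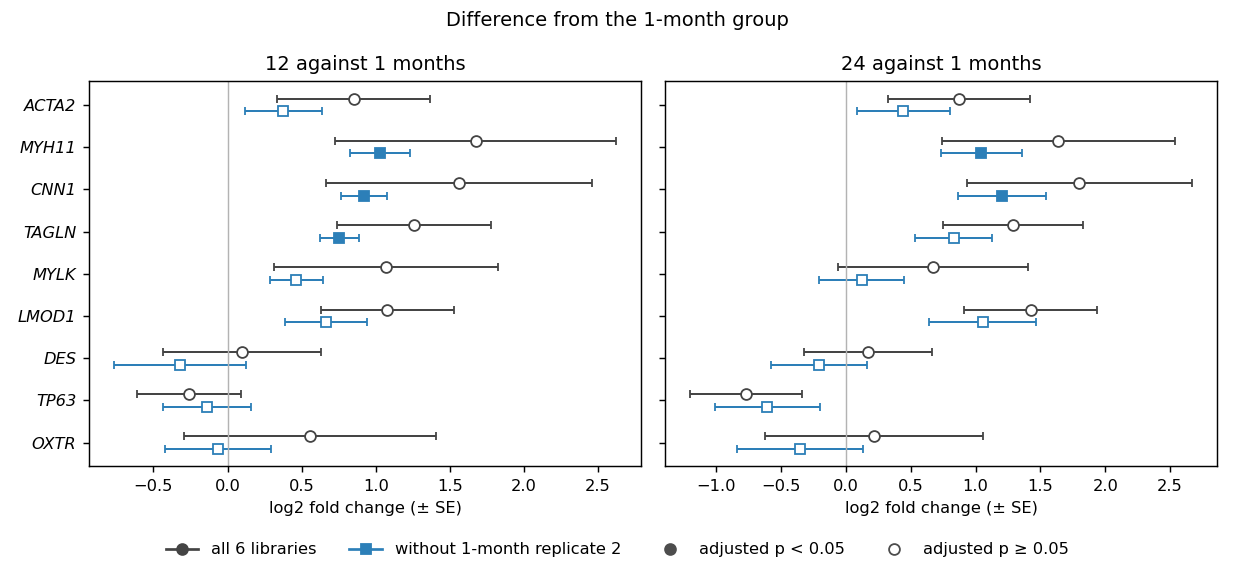
Log2 fold change of each member against the 1-month group (horizontal axis, ± SE) at 12 months (left) and 24 months (right), from all 6 libraries (circles) and without 1-month replicate 2 (squares). Filled symbols passed an adjusted p of 0.05: *MYH11*, *CNN1* and *TAGLN* at 12 months and *MYH11* and *CNN1* at 24 months, all without replicate 2, where the bars are also shorter.

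Over the 9 members the median log2 fold change was 1.07 in group B and 0.87 in group C, beside -0.024 and -0.0081 over all genes tested. Without 1-month replicate 2 these medians were 0.46 and 0.44, beside -0.013 and 0.050. The fitted change was above 0 for 8 of 9 members with all libraries and for 6 of 9 without that library, in both comparisons. Both comparisons use the same 1-month libraries. The libraries of the 2 ages did not overlap for 5 members in group B (*MYH11*, *CNN1*, *TAGLN*, *MYLK* and *LMOD1*) and for 4 in group C (all of these but *MYLK*), each time with the adult libraries higher. Among all genes tested, 26.6% and 20.2% were separated in that direction, and 53.6% and 43.7% in either direction. The members' counts are therefore not read as a result about the members. An exact permutation test of 3 against 3 cannot give a two-sided p under 0.1.

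The 1-month library of replicate 2 did not lack the contractile members evenly. Against the mean of replicates 1 and 3, it held 4.27% of the level of *MYH11*, 4.74% of *CNN1* and 9.48% of *MYLK*. It held more of *TAGLN* (23.0%), *ACTA2* (27.5%), *DES* (35.5%) and *LMOD1* (37.1%). *OXTR* was at 6.62% there, a level that rests on 6.74 counts, and *TP63* at 136%.

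Ratios between members within a library do not depend on how libraries are scaled to each other. The log2 ratio of *MYH11* counts to *ACTA2* counts was -0.04, -2.59 and 0.26 in the 1-month libraries. It was 0.79, 0.95 and 0.57 at 12 months and 0.99, 0.46 and 0.76 at 24 months, so every adult library was above every 1-month library, also above replicates 1 and 3. *CNN1* was the other gene raised against *ACTA2* in this way, in group C alone, with ratios from -1.76 to -1.31 and a mean of -1.54, against a mean of -3.16 at 1 month, or -2.31 without replicate 2. *TP63* was lower relative to *ACTA2* in group C, from -3.65 to -2.72 against -2.63 to 0.08, with a mean of -3.27 against -1.51, or -2.30 without replicate 2. For the other 5 members (*TAGLN*, *MYLK*, *LMOD1*, *DES* and *OXTR*) the ratios of the ages overlapped in both comparisons. These ratios were not tested, and the share of all genes separated in this way against *ACTA2* was not computed. The separated ratios are therefore not read as a result about the members. Comparing ratios between genes would need transcript lengths, which the table does not give.

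**Figure D3:**
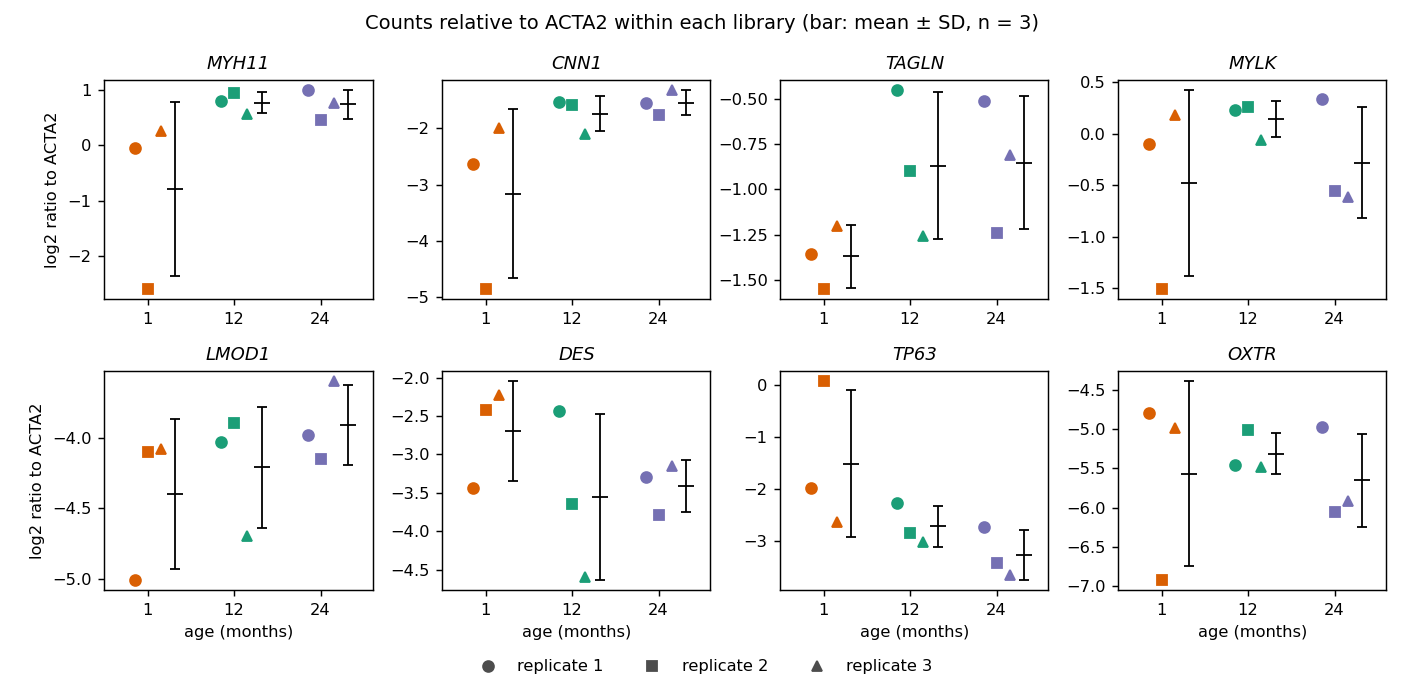
Log2 ratio of the counts of 8 members to those of *ACTA2* within each library (vertical axis, a separate scale in each panel) against age in months, with 1 symbol per library and the mean ± SD of 3 libraries as a bar. For *MYH11* all adult libraries, from 0.46 to 0.99, lie above the highest 1-month library at 0.26, and for *TP63* all 24-month libraries lie below the 1-month ones.

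Between the adult groups, 0 of the 9 members passed the test, and 0% of the 14289 genes tested did (edgeR quasi-likelihood test; 1560 genes had an unadjusted p under 0.05, DESeq2 called 25 genes and the edgeR exact test 24). The fitted change from 12 to 24 months was lower for *TP63* (-0.52, SE 0.263, adjusted p 0.429), *MYLK* (-0.41, SE 0.262, adjusted p 0.461) and *OXTR* (-0.35, SE 0.377, adjusted p 0.616). It was -0.049 for *MYH11* and between 0.0048 and 0.33 for the other 5 members. *TP63* was the only member whose libraries did not overlap between these ages, where 15.5% of all genes were separated in either direction. Without 24-month replicate 1, 31.6% of all genes passed, and still 0 members did. The lowest adjusted p of a member was then 0.0964, for *CNN1* at 0.39 (SE 0.160), and that of *TP63* was 0.104 at -0.59 (SE 0.250).

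Around the members, 18 further genes of the smooth muscle contractile apparatus were counted from a list. For this list and those that follow, the shares of all genes called as higher and lower were 6.49% and 11.8% at 12 months, and at 24 months 7.08% and 10.6%. Without 1-month replicate 2 they were 21.1% and 22.1% at 12 months, and at 24 months 13.8% and 14.2%. With all libraries 0 of 18 passed in group B and 1 in group C, *MYL9*, the regulatory light chain of smooth muscle myosin on which the kinase MYLK acts, which rose by 1.51 on the log2 scale (SE 0.436, adjusted p 0.0473). Its levels were 28.1, 20.0 and 34.0 CPM at 1 month and 40.0, 79.2 and 93.8 CPM at 24 months, and without 1-month replicate 2 its change was 1.30 (SE 0.413, adjusted p 0.0445). The median log2 fold change of the list was 0.52 in group B and 0.66 in group C. Without 1-month replicate 2, 7 of the 18 rose and 1 fell in group B, and 2 rose and 0 fell in group C, with medians of 0.34 and 0.37. *SYNM*, the intermediate filament protein synemin, was at 58.0, 1.80 and 43.5 CPM at 1 month and between 125 and 207 CPM in the adult libraries. Its change was 1.81 (adjusted p 0.00177) in group B and 1.76 (adjusted p 0.00940) in group C without that library, and 2.46 (adjusted p 0.124) and 2.35 (adjusted p 0.121) with it.

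The list of contraction signalling held 17 genes, which relay a receptor signal to calcium, the light-chain kinase and the light-chain phosphatase. With all libraries 2 rose and 2 fell in group B, and 2 rose and 1 fell in group C. The G-protein subunit *GNA11*, which couples receptors such as OXTR to phospholipase C, rose from 24.8, 19.3 and 28.9 CPM at 1 month to between 45.1 and 58.1 CPM at 12 months and between 53.2 and 85.8 CPM at 24 months. Its log2 fold change was 1.18 (SE 0.253, adjusted p 0.0250) and 1.69 (SE 0.370, adjusted p 0.0196). The phospholipase *PLCB3* rose as well, by 1.00 (SE 0.233, adjusted p 0.0314) and 1.53 (SE 0.410, adjusted p 0.0366). *CACNA1C*, the pore of the L-type calcium channel, fell by 2.34 (SE 0.454, adjusted p 0.0191) and by 2.76 (SE 0.428, adjusted p 0.00741). Its levels were 99.3, 128 and 56.7 CPM at 1 month and 12.4 to 27.2 CPM in the adult libraries, and 1-month replicate 2 was the highest. *ARHGEF1*, an activator of RhoA that is abundant in lymphocytes, fell by 2.78 (SE 0.678, adjusted p 0.0352) in group B and was at 489 CPM in 1-month replicate 2 against 114 and 113 CPM in replicates 1 and 3. Without replicate 2, 6 rose and 4 fell in group B and 2 rose and 2 fell in group C, and *GNA11*, *PLCB3* and *CACNA1C* were called in both. The changes in groups B and C were then 0.97 and 1.52 for *GNA11*, 0.82 and 1.39 for *PLCB3*, and -2.10 and -2.48 for *CACNA1C*. For *ARHGEF1* the change in group B was -1.72 (adjusted p 0.00100) without that library.

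Of 9 transcriptional regulators of smooth muscle genes, 1 rose and 1 fell in group B and 1 rose in group C. These were the partners of serum response factor *MRTFB*, which rose by 1.55 (SE 0.305, adjusted p 0.0196) in group B and by 1.31 (SE 0.381, adjusted p 0.0474) in group C, and *MRTFA*, which fell by 2.43 (SE 0.662, adjusted p 0.0470) in group B. *MRTFA* was at 177 CPM in 1-month replicate 2 against 35.6 and 50.1 CPM in replicates 1 and 3, and its change in group B without that library was -1.41 (SE 0.232, adjusted p 0.00543). *MRTFB* was then at 1.26 (adjusted p 0.00215) and 1.07 (adjusted p 0.0314). *MYOCD*, the smooth muscle coactivator myocardin, lay between 0.493 and 4.08 CPM in all 9 libraries and was not called in either comparison. Without replicate 2, 3 regulators rose and 1 fell in group B, and 1 rose and 1 fell in group C.

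The list of other myoepithelial and basal epithelial genes held 19 measured genes. There 2 rose in group B, *TRIM29* (1.27, SE 0.315, adjusted p 0.0363) and *EGFR*, the epidermal growth factor receptor (1.29, SE 0.319, adjusted p 0.0360), and 1 rose in group C, *TRIM29* (2.02, SE 0.461, adjusted p 0.0221). None fell, and the list's median was -0.032 in group B and -0.080 in group C. Without replicate 2, 6 rose and 1 fell in group B and 2 rose in group C, with medians of 0.019 and 0.31. *TRIM29* was then at 0.98 and 1.77 in groups B and C, and *EGFR* at 1.05 in group B. The list was divided in 1-month replicate 2, where 7 of its 19 genes had their highest and 8 their lowest level of the 9 libraries. The basal keratins *KRT5* and *KRT14* were among the highest, with *KRT5* at 130.4 CPM against 51.3 and 44.6 CPM in replicates 1 and 3 and 38.9 to 75.4 CPM in the adult libraries, and *KRT14* at 52.8 CPM against 5.94 to 13.0 CPM elsewhere. *SOX10*, a transcription factor of salivary acinar and myoepithelial cells, was among the lowest, at 0.745% of the mean of replicates 1 and 3, as was *MME*, a myoepithelial surface peptidase, at 2.02%. Thymic epithelium also expresses both keratins, and the part of that tissue in these levels was not tested.

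Vessels can supply the same contractile genes, so 14 genes of vascular smooth muscle and pericytes were counted too. With all libraries, 11 of the 14 were tested at 12 months and 12 at 24 months, since the others did not pass the low-count filter. Of those tested, 1 gene fell in each comparison, *NOTCH3*, and 0 rose. *NOTCH3* stood at 854 CPM in 1-month replicate 2, at 169 and 119 CPM in replicates 1 and 3 and at 50.7 CPM or less in the adult libraries. Its change was -3.71 in group B and -3.36 in group C, or -2.32 and -1.93 without that library. Without that library 12 were tested at each age, and 2 rose and 3 fell in group B, and 0 rose and 3 fell in group C. Among those that rose in group B was *RGS5*, a pericyte marker (1.30, SE 0.153, adjusted p 0.00206), at 42.6 and 35.0 CPM in 1-month replicates 1 and 3 and between 86.2 and 101 CPM at 12 months. At 24 months *RGS5* was at 84.8, 17.1 and 22.4 CPM and did not pass the test. *CSPG4*, which encodes the pericyte proteoglycan NG2, fell in both comparisons without replicate 2, by 1.17 (SE 0.257, adjusted p 0.0141) and by 1.12 (SE 0.345, adjusted p 0.0399). The endothelial list of 8 genes had 0 calls with all libraries, and without replicate 2 it had 2 lower genes in group B and 0 calls in group C. Of 12 fibroblast and matrix genes, 2 fell at 12 months and 4 at 24 months when all libraries were used, and 9 fell at each age without replicate 2. *COL3A1*, a fibrillar collagen, went from 2277 and 2542 CPM in 1-month replicates 1 and 3 to 149 to 437 CPM in the adult libraries, and was at 434.5 CPM in 1-month replicate 2.

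The summed level of the 7 contractile members (*ACTA2*, *MYH11*, *CNN1*, *TAGLN*, *MYLK*, *LMOD1* and *DES*) was 625, 91.7 and 587 CPM in the 1-month libraries. It lay between 793 and 1108 CPM at 12 months and between 809 and 999 CPM at 24 months, above every 1-month library. Most of the sum was *MYH11*, *ACTA2* and *MYLK*. By themselves *ACTA2* and *DES* overlapped between the ages, as did *MYLK* at 24 months. The separation of the sum is not read as a result about the members. Salivary acinar and duct genes other than *MUC19* moved in the same direction as the sum, from 3009, 791 and 2476 CPM at 1 month to between 14218 and 21828 CPM in the adult libraries, over 15 genes. Most of the adult sum was *PIGR*, the receptor that carries antibodies into saliva, and over the 14 genes without it the sums were 2177, 787 and 1469 CPM at 1 month and between 4482 and 6264 CPM in the adult libraries. Thymocyte genes moved the opposite way, and all 10 fell in both comparisons with and without replicate 2. So did the 6 cell cycle genes. The part of these other cells in the levels of the contractile members was not tested, and age cannot be told apart here from the share of other tissue in the 1-month samples.

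**Figure D4:**
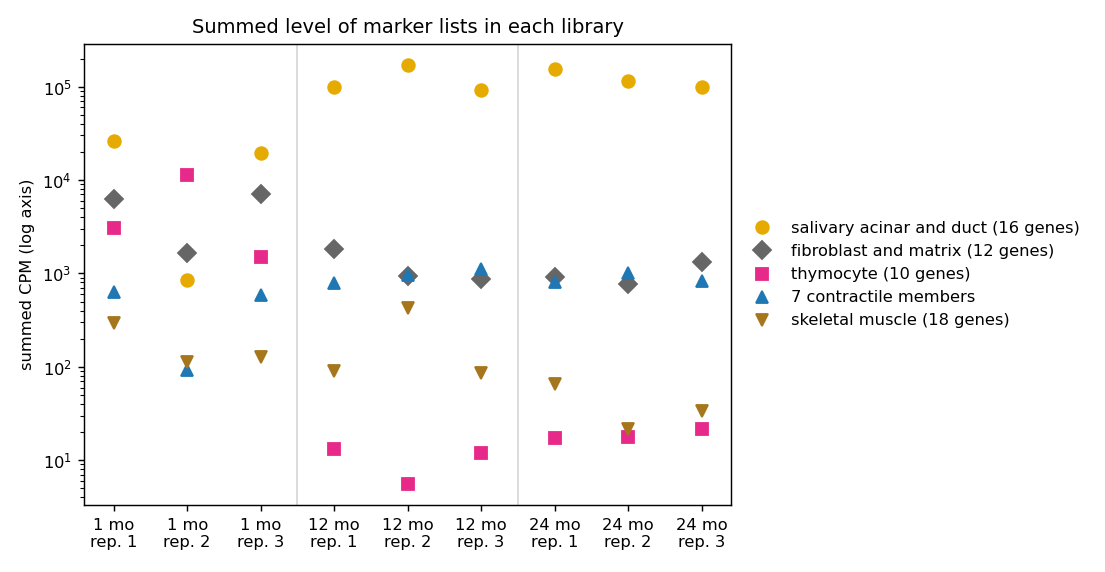
Summed CPM (vertical axis, logarithmic) of 5 marker lists in each of the 9 libraries (horizontal axis, by age and replicate), with 1 symbol per list. In 1-month replicate 2 the 7 contractile members, at 91.7 CPM, and the acinar and duct genes, at 842 CPM, are at their lowest and thymocyte genes, at 11227 CPM, at their highest.

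At the level of transcripts the members had 22 rows, of which 20 had counts. *ACTA2*, *CNN1*, *TAGLN*, *LMOD1* and *DES* had 1 RefSeq transcript each. *MYH11* had 2 RefSeq transcripts, and the more abundant held 81.9% to 92.6% of its counts. *MYLK* was divided between a RefSeq transcript and a new one assembled by the authors, which held 26.1% to 56.3%. *TP63* rested mainly on 1 RefSeq transcript, with 61.6% to 86.5%, and on 2 others that reached 10% in some libraries, a new one with 0% to 29.3% and a RefSeq one with 0% to 19.5%. For *OXTR* the split was unstable. One new transcript held 57.5% to 100% of its counts in 8 libraries and 0 counts in 1-month replicate 3, where another new transcript held 52.1 counts (75.6%) and had at most 0.03 counts elsewhere. *OXTR* is therefore best read as the sum. Tested one by one over all transcripts, 0 of the members' transcripts passed in any pair of ages with all libraries, beside 2.98% of all transcripts in group B, 1.5% in group C and 0% between the adult groups. Without 1-month replicate 2, the transcripts of *CNN1* (0.90, adjusted p 0.0408) and *TAGLN* (0.73, adjusted p 0.0351) rose in group B. So did the more abundant transcript of *MYH11* (1.06, adjusted p 0.0421). In either direction 9.94% of all transcripts passed there. In group C 0 of the members' transcripts passed, beside 0.601%. The share that passed as higher was not computed, and member transcripts that failed the low-count filter were not tested. These calls are not read as a result about the members.

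**Figure D5:**
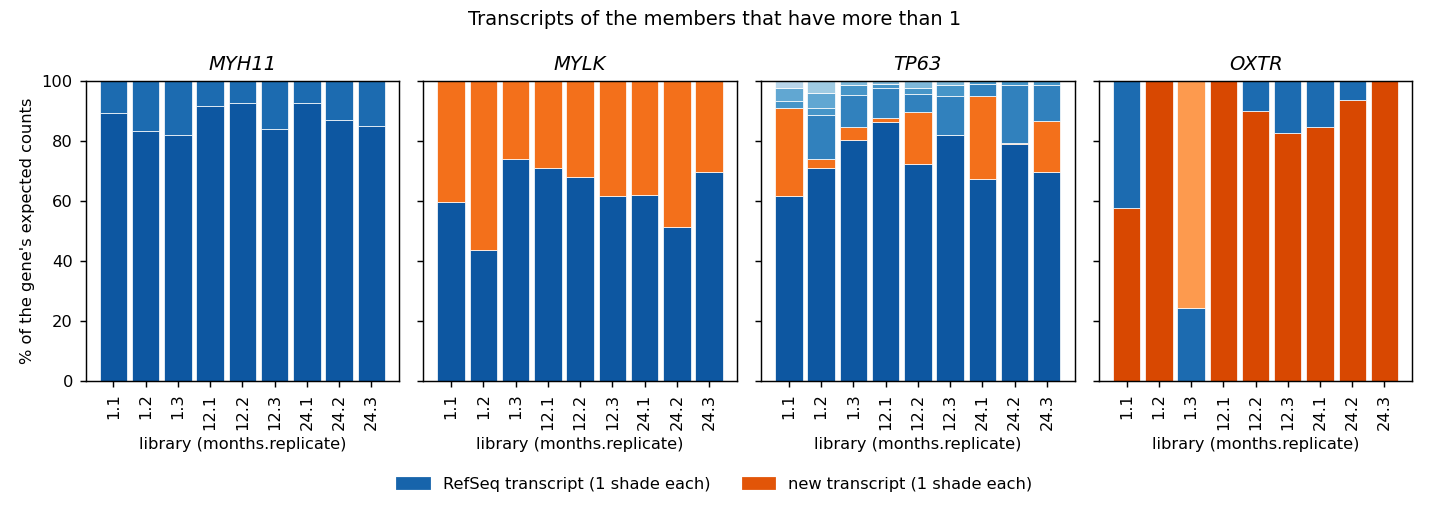
Percentage of a gene's expected counts assigned to each of its transcripts (vertical axis) in each library (horizontal axis, months and replicate) for the 4 members with more than 1 transcript, RefSeq transcripts in blue and new ones in orange. The shares of *MYH11* and *MYLK* keep their main transcript in 8 of 9 libraries or more, and in *OXTR* a different new transcript takes 75.6% in 1-month replicate 3.

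Finally, the genes whose levels ran most parallel to each member were taken as the 5 with the highest Pearson correlation of log2(CPM + 1) over the 9 libraries, among 15193 others. The 9 points share their scaling and 1 of them is 1-month replicate 2, so r is given with and without it, as a description. For *MYH11* the closest were *NR3C2* (0.997 over 9 libraries, 0.954 over 8), *TFCP2L1*, *CHRM3*, *NHSL1* and *ZG16B* (0.993, 0.893). For *CNN1* they were *PTK2* (0.998, 0.977), *SHANK2*, *TCTN1*, *CD9* and *LTBP2*, and for *TAGLN* they were *SLC44A3* (0.997, 0.977), *PHLDA1*, *FOXA1*, *NHSL1* and *RBM47*. *ACTA2* ran closest to *JPH2* (0.972, 0.845), *FZD7*, *ACTG2* (0.959, 0.790), *STARD13* and *ADAM23*. For *MYLK* the list was *PLCE1* (0.995, 0.930), *ANTXR1*, *ACVR2A*, *CDK14* and *RYK*, and for *LMOD1* it was *ARSG* (0.982, 0.950), *CTSF*, *TNS3*, *METRNL* and *PLCD1*. *DES* had *GPR153* (0.966, 0.965), *PRICKLE2*, *EMP1*, *WLS* and *ANXA3*. *TP63* had *LANCL1* (0.934, 0.915), *MRPS14*, *POLE3*, LOC102169288 and *GRAMD3*, and *OXTR* had *SLC35F1* (0.986, 0.910), *ARHGAP20*, *DGKB*, *SLITRK6* and *PGGT1B*.

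Among the members themselves, *MYH11* and *CNN1* ran closest, with an r of 0.992 over 9 libraries and 0.911 without 1-month replicate 2. *CNN1* and *LMOD1* kept 0.938 and 0.952. *MYLK* and *CNN1* went from 0.930 to 0.117, and *MYLK* and *OXTR* from 0.956 to 0.680. *DES* had an r with *MYH11* of 0.528 and -0.554, and *TP63* with *LMOD1* of -0.789 and -0.733. The parallel course of *MYLK* with the other contractile genes thus rested largely on 1 library. Between *MYH11*, *CNN1* and *TAGLN* r was at least 0.861 over 8 libraries, but many other genes ran closer. For *CNN1*, *TAGLN* was at rank 1518 of 15193 over these libraries. *MYH11*, *CNN1* and *TAGLN* were also the members called as higher in group B without 1-month replicate 2. A high r between them is therefore no separate support.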

How the data were processed

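The deposited table holds RSEM expected counts per transcript and library (the authors' values, not normalized) for 42686 known and 10053 new transcripts. Per the labels, the submitters' processing notes and the study's methods, strand-marked libraries from ribosome-depleted RNA were sequenced, ribosomal reads were removed with Bowtie2 2.2.8, the rest aligned with TopHat2 2.1.1 and assembled with Cufflinks. The genome build is not given in the sources used here, so no coordinates are printed. The table holds no FPKM and no lengths, so the study's FPKM minimum was not applied.

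Counts were summed per gene (99.9% of known transcripts matched RefSeq by gene ID; goat assembly ARS1.2), rounded and tested for each pair of ages on its 6 libraries with edgeR 4.0.16 in R 4.3.3 (filterByExpr, TMM, quasi-likelihood test, Benjamini-Hochberg over all genes, threshold 0.05). SE is the absolute log2 fold change divided by the square root of F. DESeq2 1.42.0 served as an alternative. The procedure was also run on simulated data with a capped spread between the libraries of an age. That run does not show how the test behaves with a library such as 1-month replicate 2. Of 165 listed genes 164 were found. Values of listed genes are given for at most 4 per list, those with the lowest p against 1 month, with exceptions. Actins that can share reads with *ACTA2* are given too, as are genes singled out after their values were seen (*MYOCD*, *KRT5*, *KRT14*, *SOX10*, *MME*). The salivary genes *MUC19*, *AQP5*, *EPCAM*, *KRT7*, *KRT8*, *KRT18*, *KRT19* and *CDH1* are given for their levels in 1-month replicate 2, also after these were seen. The members and lists were chosen with earlier results of these data known. With all libraries, each p sets a difference against the spread between 3 goats per age. A fit that left out 1 library had 1 goat fewer in that age.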

Additional observations from a re-analysis of the deposited data

How the results depend on the processing

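The number of members at an adjusted p under 0.05 was 0 in each comparison and moved only with 1-month replicate 2 or the scaling. Leaving out 1 library at a time gave 0 to 3 members at 12 months and 0 to 2 at 24 months, both highest without 1-month replicate 2. With the 8 other libraries in one fit there were 3 and 4 (*LMOD1* joined *MYH11*, *CNN1* and *TAGLN* in group C). That fit called 4194 and 5826 of the 15549 genes tested, 1851 and 2742 of them as higher. With total-count scaling 1 member passed in group C (*TP63*, lower), beside 3549 of 14954 genes, 3288 of them lower. These counts are not read as a result about the members. The stricter threshold gave 0 under all 16 alternatives, and the counts of separated members kept their size under the 2 alternatives run for them (DESeq2 size factors and RefSeq transcripts alone), although between the adult groups *MYLK* took the place of *TP63* with RefSeq transcripts alone. Over all genes, leaving out 1 library gave 0 to 6591 calls at 12 months, 309 to 4295 at 24 months and 0 to 4614 between the adult groups. Against 2719 calls at 12 months, DESeq2 made 4728, the exact test 4162 and the fit of 8 libraries 4194. Against 2637 at 24 months, DESeq2 made 4054, all 9 libraries in one fit 4400 and 8 libraries 5826. Without the filter there were 2 calls between the adult groups, and with total-count scaling 1. That scaling moved the split of higher and lower calls from 966 and 1753 to 210 and 3279 at 12 months, and from 1058 and 1579 to 261 and 3288 at 24 months. The cause was not tested.

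Of 432 refitted log2 fold changes of members, 369 kept their direction and side of the threshold, 13 passed it and 50 changed sign, each from a value that was not called. With total-count scaling the changes against 1 month were -0.47 (*DES*) and -0.039 (*OXTR*) in group B and -0.16 (*MYLK*), -0.62 (*DES*) and -0.61 (*OXTR*) in group C. With 8 libraries in one fit *DES* was at -0.32 in both and *OXTR* at -0.063 and -0.46. With RefSeq transcripts alone *OXTR* was at -1.22 and -2.01 and *DES* in group C at -0.022. Between the adult groups *ACTA2* was at -0.035 (DESeq2, and its size factors), -0.056 (upper quartile), -0.005 (no filter), -0.041 (all 9 libraries), -0.043 (8 libraries), -0.048 (RefSeq) and -0.22 (total counts). In the same settings *TAGLN* was at -0.016, -0.044, -0.024, -0.027, -0.031 and -0.19, without the filter excepted, and *DES* at -0.018 (upper quartile), -0.0021 (RefSeq) and -0.14 (total counts). Leaving out 1 library gave -0.35 to 0.59 and -0.21 to 0.67 for *DES* at 12 and 24 months, -0.064 to 1.11 and -0.36 to 0.82 for *OXTR*, and between the adult groups -0.26 to 0.21 for *ACTA2*, -0.25 to 0.03 for *MYH11*, -0.024 to 0.036 for *TAGLN* and -0.25 to 0.47 for *DES*.

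Replicate numbers did not pair the libraries: deviations of same-numbered libraries from their group means correlated from -0.18 to 0.34. With a replicate block 0 members passed in any comparison, and all-gene calls went from 2719 to 925, from 2637 to 2162 and from 0 to 7. Library totals limit *OXTR* most, at 6.74 counts in 1-month replicate 2.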
